A study of Mus musculus with 26 samples.

Results

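Cycling skin fibroblasts are the cells of 2 single-cell libraries of mouse skin that carried transcripts of the mitotic machinery together with fibroblast collagen. A cell was counted as cycling when at least 3 of 7 genes (Top2a, Mki67, Cdk1, Birc5, Ube2c, Cenpf and Prc1, called the rule genes below) had a unique molecular identifier (UMI, a tag that counts 1 captured RNA molecule), when Col1a1 had at least 1 UMI and when Ptprc, the leukocyte antigen CD45, had 0. Barcodes with 500 or more genes and at most 10% of UMIs from mitochondrial genes were kept. The rule took 484 cells of 23153 kept and 33086 deposited barcodes, 418 in tube 1 and 66 in tube 2. They were set beside the 22416 other kept cells of the same tubes that met the Col1a1 and Ptprc conditions, 17754 in tube 1 and 4662 in tube 2, which are called other fibroblasts here. Because measured values chose the cells, every difference between cycling and other fibroblasts is a description by size and carries no test.

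All mice were of the strain labelled Prrx-Cre. The series contrasts fibroblasts positive for the transcription factor Prrx1 (PPF) with fibroblasts negative for it (PNF), both isolated by FACS. For single cells, the design text gives PPF and PNF from caudal and ventral skin, unwounded and wounded, as 8 samples that were tagged with hashtag antibodies and pooled into 2 tubes, whereas the labels of the tubes give postnatal ventral skin with no day of age. The labels do not say which hashtag belongs to which sample, so each tube is 1 sample and lineage, wounding and site cannot be told apart within it. For bulk RNA, PPF and PNF of ventral skin were sequenced at the ages labelled E16.5 and E18.5 (embryonic days) and P1 and P30 (postnatal days). PPF had 2, 2, 2 and 6 libraries and PNF had 2, 4, 4 and 2 libraries at these ages in that order. The labels do not say that the libraries of a group came from separate animals, so p-values measure only the spread between these libraries.

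Cells that divide pass from G1, in which cyclin D and its kinases act on the retinoblastoma family, through S phase, in which DNA is copied, to G2 and mitosis, in which chromosomes are condensed and parted. E2F factors are known to drive the genes of DNA replication, and the DREAM and MYB-MuvB complexes are known to act on genes of G2 and mitosis through promoter elements called the CHR and the CCAAT box. Dermal fibroblasts divide in fetal and newborn skin, largely leave the cycle in adult skin, and are known to enter it again in wounds. All 7 rule genes peak in G2 and mitosis, so the rule favours these phases over G1 and S.

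Cycling fibroblasts made up 2.30% of the fibroblasts of tube 1 (95% exact binomial interval 2.09 to 2.53) and 1.40% of those of tube 2 (1.08 to 1.77). These intervals, and the Poisson intervals of levels, cover counting error only. Cycling cells were deeper than the rest, with a median of 5013.5 UMIs against 2696 in other fibroblasts of tube 1, and 9882 against 4436.5 in tube 2. They also held more genes, with medians of 2066.5 against 1199 and 3125 against 1692.5, while mitochondrial shares were alike at medians of 6.43% against 6.46% and 4.39% against 4.23%. A deeper cell reaches 3 detected genes more readily, so the share was also taken among cells with at least 2000 UMIs. These were 13317 and 4272 of the kept cells. They were thinned to 2000 UMIs and the Col1a1, Ptprc and rule gene conditions were applied to the thinned counts. The share was then 262 of 13249 fibroblasts (1.98%, 1.75 to 2.23) in tube 1 and 31 of 4250 (0.729%, 0.496 to 1.03) in tube 2. Without thinning, it was 3.04% and 1.53% among fibroblasts of that depth. The tubes shared 32 kept barcodes, none of them a cycling cell.

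The label of the cells was checked against fibroblast markers. Col1a2 and Col3a1, the other chains of the main fibrillar collagens, were found in all 484 cycling cells. Dcn, the collagen-binding proteoglycan decorin, was found in 416 of 418 cycling cells of tube 1 and in 66 of 66 of tube 2, and Lum, the related lumican, in 410 and 64. Detection of these genes did not separate the classes: Ptprc-positive cells held Col1a2 in 93.5% and 100%, Col3a1 in 98.4% and 100%, Dcn in 91.1% and 100%, and Lum in 70.7% and 84.0% of cells in tubes 1 and 2. Their levels lay apart, with a median of 77.5 and 114 Col1a2 UMIs in cycling cells, against 17 and 17.5 in Ptprc-positive cells, which were shallower. Pdgfra, a receptor chain for platelet-derived growth factor, had a UMI in 67.2% of cycling and 48.0% of other fibroblasts of tube 1, and in 84.8% and 65.6% in tube 2. In Ptprc-positive cells, a median of 13 Col1a1 UMIs was found in 123 cells of tube 1 (median depth 1945 UMIs) and of 19 in 50 cells of tube 2 (2683 UMIs), so a Col1a1 UMI alone did not separate fibroblasts from them. Cycling cells held a median of 66 and 119 Col1a1 UMIs in tubes 1 and 2, and 20 of 418 (4.78%) and 5 of 66 (7.58%) had no more than the Ptprc-positive median, against 11.2% and 12.96% of other fibroblasts. Pdgfra was found in 32.5% and 40.0% of the Ptprc-positive cells. With the same thinning it was found in 41.4% of cycling, 38.1% of other and 40.0% of Ptprc-positive cells in tube 1. In tube 2 these shares were 33.8%, 41.5% and 14.3%. Thinned Pdgfra detection thus did not separate cycling from Ptprc-positive cells in tube 1, and was lower in cycling than in other fibroblasts in tube 2.

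Doublets were not removed. The caller Scrublet marked 0 cells in both tubes and so had not worked, and hashtags were used instead. Of the 10 hashtags, 6 led the tag counts of cells. A clear leading tag, with at least 10 counts and at least 2 times the next tag, was found in 331 of 418 cycling cells (79.2%) against 66.0% of other fibroblasts in tube 1, and in 48 of 66 (72.7%) against 49.5% in tube 2. Among cells with a clear tag, which was a choice made after seeing the data, the cycling share was 2.75% in tube 1 and 2.04% in tube 2. By leading tag the share lay between 2.26% (1.09 to 4.12) and 4.57% (3.42 to 5.97) in tube 1, and between 0.971% (0.316 to 2.25) and 4.29% (1.74 to 8.65) in tube 2.

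The 7 rule genes, whose values chose the cells, are given first, as a description. Top2a, the topoisomerase that untangles sister chromatids, was at 523 CPM (the summed UMIs of a gene over all UMIs of the cells, times 1e6) in cycling fibroblasts against 2.39 in other fibroblasts of tube 1, and at 317 against 3.67 in tube 2. Mki67, the coat protein of mitotic chromosomes that antibodies to Ki-67 detect, was at 377 against 2.67 CPM in tube 1 and 387 against 5.05 in tube 2. Cdk1, the kinase that starts mitosis, was at 240.5 against 2.13 and 141 against 2.40 CPM. The other 4 rule genes act in mitosis too. Birc5, the survivin subunit of the chromosomal passenger complex, was at 356 against 3.46 and 286 against 3.47 CPM, and Ube2c, the ubiquitin-conjugating enzyme of the anaphase-promoting complex, at 445 against 2.00 and 247 against 3.35. Cenpf, a kinetochore protein, was at 294 against 2.43 and 272 against 2.92 CPM, and Prc1, which bundles microtubules of the spindle midzone, at 328 against 2.06 and 165 against 2.29.

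**Figure D1:**
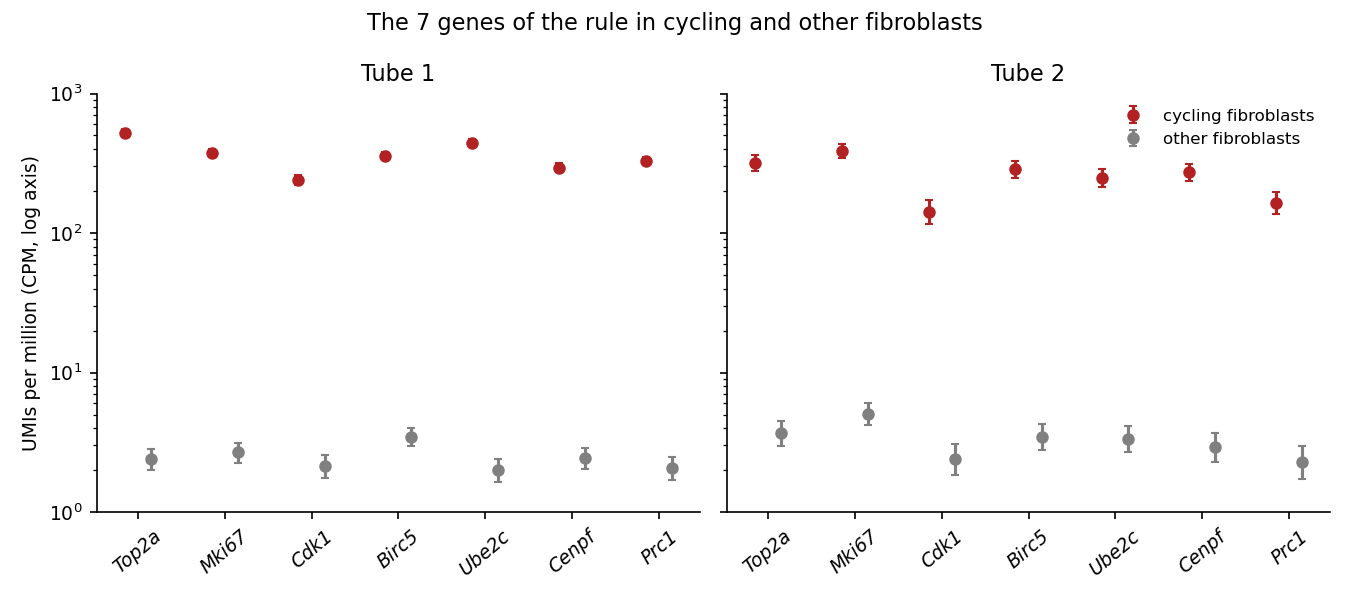
Levels of the 7 rule genes in CPM (log axis) in cycling fibroblasts (red) and other fibroblasts (grey), with tube 1 on the left and tube 2 on the right; bars are 95% Poisson intervals. In tube 1 the cycling levels lie between 240.5 (Cdk1) and 523 (Top2a) and the others between 2.00 and 3.46.

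Not every cycling cell held every rule gene. In tube 1 the share of cycling cells with a UMI ran from 59.3% for Cenpf to 83.3% for Mki67, and in tube 2 from 59.1% for Ube2c to 89.4% for Mki67. Mki67 was thus the most widely found rule gene in both tubes. In other fibroblasts these shares ran from 0.563% to 0.867% in tube 1 and from 1.14% to 2.53% in tube 2. In Ptprc-positive cells, of which 5 of 123 and 1 of 50 had at least 3 rule genes, they ran from 3.25% to 10.6% and from 2.00% to 10.0%.

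Levels changed in steps with the number of rule genes detected. In tube 1, 17075 fibroblasts had 0 rule genes, 562 had 1, 117 had 2, and 87, 74, 78, 78 and 101 had 3, 4, 5, 6 and 7. In tube 2 these numbers were 4163, 454, 45, 13, 16, 10, 7 and 20. Just inside the threshold, at 3 rule genes, the summed level of a list of 71 genes of G2 and mitosis (70 found in the tables, none of them a rule gene) was 5682 CPM against 4043 at 2 rule genes in tube 1, and 2462 against 1237 in tube 2. Cells with 0 rule genes had the list at 665 and 677 CPM, so that cells with 2 lay nearer to the members at the threshold in tube 1 and nearer to cells with 0 in tube 2. At 7 rule genes it reached 12859 and 10481 CPM. Hmgb2, a chromatin protein of dividing cells and a gene of that list, followed the same course and was at 697 and 866 CPM at 7 rule genes, against 28.4 and 41.5 at 0. A list of 49 genes of DNA replication and S phase levelled off instead, with 3701 CPM at 5 and 2554 at 7 rule genes in tube 1, and 3529 and 2882 in tube 2.

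**Figure D2:**
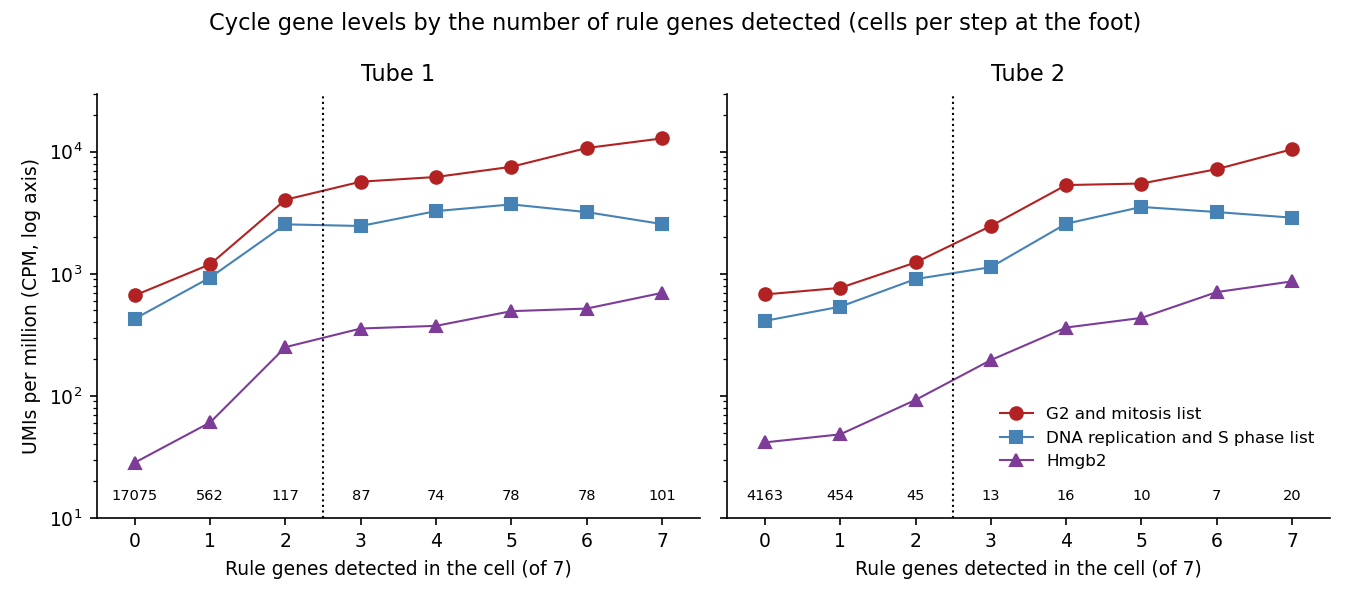
Summed levels of the G2 and mitosis list (red circles), the DNA replication and S phase list (blue squares) and Hmgb2 (purple triangles) in CPM (log axis) by the number of rule genes detected, with the number of cells at the foot and a dotted line at the threshold. The G2 and mitosis list rises at each step to 12859 (tube 1) and 10481 (tube 2), while the S phase list is highest at 5 rule genes, with 3701 and 3529.

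Across the genome, 428 of 7863 genes with at least 10 CPM (as the mean of both classes, in each tube) were at least 2-fold higher in cycling than in other fibroblasts in both tubes, which is 5.44% of those tested. At least 2-fold lower were 69 genes, which is 0.878%. The rule used this contrast, so nothing is read from these shares. A total of 487 genes were under 10 CPM in other fibroblasts of at least 1 tube, and these had to be higher to be tested: 252 of them (51.7%) were higher and 0 lower. Among the 7376 genes at 10 CPM or more in other fibroblasts of both tubes, 176 (2.39%) were higher and 69 (0.935%) lower. Of the 428 higher genes, 112 (26.2%) were in the replication, mitosis and rule lists, and 283 were in none of the 37 lists used here. None of the 69 lower genes was in a cycle list.

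The scale matters for the direction. CPM compares shares of a cell's RNA, and the median log2 fold of all tested genes was 0.10 in tube 1 and 0.13 in tube 2. On UMIs per cell, which also carries the larger UMI totals of cycling cells, that median was 0.93 and 1.15, 2988 genes (38.0%) were higher and 3 (0.0382%) lower. With other fibroblasts weighted to the members' UMI totals, 392 genes (5.03% of 7795) were higher and 23 (0.295%) lower. Higher and lower below refer to CPM unless another scale is named.

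Genes of DNA replication were higher in 41 of 42 tested, but 28 of the 42 were under 10 CPM in other fibroblasts of at least 1 tube and had to be higher to be tested. Of the 14 that were not, 13 were higher. None was lower, with a median log2 fold of 2.73 in tube 1 and 2.69 in tube 2, and the list summed to 2992 CPM in cycling against 467 in other fibroblasts of tube 1 and to 2710 against 431 in tube 2. Tk1, the thymidine kinase that salvages DNA precursors, was at 119 against 1.48 CPM in tube 1 and 93.4 against 1.69 in tube 2. Rrm2, the small subunit of ribonucleotide reductase, was at 145 against 4.65 and 117 against 4.26 CPM. Asf1b, a histone chaperone, was at 40.5 against 1.12 and 42.6 against 0.985 CPM, and Clspn, the replication checkpoint mediator claspin, at 69.3 against 1.98 and 82.4 against 1.66. The level of each of these 4 genes was at least 27.4-fold higher. The gene under the 2-fold limit was Gins4, a subunit of the replicative helicase, with 24.4 against 12.5 and 28.8 against 15.0 CPM. The 7 list genes that did not reach 10 CPM and were not tested were Ccne2, Cdc6, E2f8, Gins1, Gins3, Pole and Pole2.

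Genes of G2 and mitosis had the largest median fold of the gene lists outside the rule genes. Of 65 tested, 64 were higher and 0 lower, but 54 of the 65 passed the level filter only through the cycling class, and of the other 11 genes 10 were higher. The list had median log2 folds of 5.98 and 5.46, and the list summed to 9112 against 717 CPM in tube 1 and 6856 against 694 in tube 2. The list shares its phase with the rule genes and was chosen on earlier results of these data, so its direction is a description. Ccnb1, the cyclin that activates Cdk1, was at 152 against 1.20 and 79.6 against 0.631 CPM. Ccna2, the cyclin of S phase and G2, was at 179 against 1.70 and 121 against 1.02 CPM. Kif2c, a kinesin that takes microtubules apart at kinetochores, was at 54.2 against 0.430 and 45.3 against 0.473 CPM, and Pbk, a mitotic kinase, at 155 against 0.953 and 82.4 against 0.867. Of these 4 genes, Pbk in tube 2 had the smallest fold, at 95.01. The exception was Pttg1, the separase inhibitor securin, with 37.8 against 40.1 CPM in tube 1 and 57.7 against 38.3 in tube 2. Ccnf, Gtse1, Mybl2, Psrc1 and Ttk did not reach 10 CPM and were not tested.

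Promoter sequences bear on this group, because the CHR and the CCAAT box are what G2 and mitosis promoters are known for. The letters TTTGAA (CHR) and CCAAT were searched on both strands in the window from 250 bases before to 50 after the RefSeq start of each gene in GRCm38.p6, for 27025 genes. The CHR letters were in 6 of 7 rule gene windows (85.7%), in 35 of the 56 list genes of G2 and mitosis that had a window (62.5%), in 7 of 38 of the replication list (18.4%) and in 18.1% of all windows. The CCAAT letters were in 6 of 7, in 41 of 56 (73.2%), in 21 of 38 (55.3%) and in 37.9% of all windows. Both together were in 6 of 7 rule gene windows, in 29 of 56 (51.8%), in 6 of 38 (15.8%) and in 7.12% of all. The 150 bases before the start of 5 rule genes are printed below, 5′ to 3′ on the gene's strand, to show the spacing of the matches; capitals mark the letters TTTGAA and CCAAT or their reverse complements. Top2a (chr11:99024190-99024339, minus strand), Mki67 (chr7:135716380-135716529, minus strand), Cdk1 (chr10:69352913-69353062, minus strand), Ube2c (chr2:164769779-164769928, plus strand) and Birc5 (chr11:117849087-117849236, plus strand) are given, the last because neither motif was in its window.
Top2a: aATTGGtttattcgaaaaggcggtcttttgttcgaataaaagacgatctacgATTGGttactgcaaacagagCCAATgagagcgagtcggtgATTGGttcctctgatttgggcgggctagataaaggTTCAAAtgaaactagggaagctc
Mki67: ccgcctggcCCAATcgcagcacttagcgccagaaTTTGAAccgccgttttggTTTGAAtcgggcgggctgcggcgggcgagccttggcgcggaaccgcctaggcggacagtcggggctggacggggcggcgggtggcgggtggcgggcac
Cdk1: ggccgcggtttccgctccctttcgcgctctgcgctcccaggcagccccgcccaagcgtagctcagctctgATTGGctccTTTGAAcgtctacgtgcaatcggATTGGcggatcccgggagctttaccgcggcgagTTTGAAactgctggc
Ube2c: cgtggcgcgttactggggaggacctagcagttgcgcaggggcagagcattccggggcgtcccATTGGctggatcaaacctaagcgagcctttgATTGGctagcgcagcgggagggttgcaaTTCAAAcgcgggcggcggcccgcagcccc
Birc5: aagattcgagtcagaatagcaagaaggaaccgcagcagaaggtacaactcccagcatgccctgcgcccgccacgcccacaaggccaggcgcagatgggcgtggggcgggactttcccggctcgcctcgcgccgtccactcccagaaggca

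In Top2a, Cdk1 and Ube2c the nearest CHR letters began 23, 15 and 29 bases before the start and the nearest CCAAT letters 58, 48 and 57 bases before it, whereas in Mki67 they lay farther out at 98 and 141 bases. Cenpf and Prc1, which are not printed, held no whole CHR match within the 150 bases before the start. Their nearest CCAAT letters began 71 and 37 bases before it. A match is a description of the letters and not of a bound site, and the lack of a match in Birc5 says only that these letters are not in its window.

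The E2F letters TTTGGCGC or TTTCGCGC, searched on both strands, were counted in the same windows. They were in 9 of 38 replication windows (23.7%), in 1 of 56 G2 and mitosis windows (1.79%), in 1 of 7 rule gene windows (14.3%, Cdk1) and in 0.833% of all windows. Of 316 higher genes outside the replication, mitosis and rule lists, 253 had a window, with CHR letters in 23.3%, CCAAT in 56.1% and E2F letters in 4.35%. Of the 69 lower genes, 49 had a window, with CHR letters in 18.4%, CCAAT in 12.2% and E2F letters in none. The bases before the start of 3 replication genes, chosen because they hold the E2F letters, are shown with these letters in capitals: Mcm5 (chr8:75109359-75109508, plus strand), Pola1 (chrX:93632156-93632305, minus strand) and Mcm6 (chr1:128359706-128359855, minus strand). Mcm5 and Mcm6 are subunits of the replicative helicase, and Pola1 is the catalytic subunit of DNA polymerase alpha. In Mcm6 matches on both strands overlap in the first capital run, and in Mcm5 the first capitals also belong to a match that begins before the printed bases.
Mcm5: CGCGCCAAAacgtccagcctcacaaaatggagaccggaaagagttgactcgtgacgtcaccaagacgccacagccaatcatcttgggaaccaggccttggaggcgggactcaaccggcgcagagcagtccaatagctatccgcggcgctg
Pola1: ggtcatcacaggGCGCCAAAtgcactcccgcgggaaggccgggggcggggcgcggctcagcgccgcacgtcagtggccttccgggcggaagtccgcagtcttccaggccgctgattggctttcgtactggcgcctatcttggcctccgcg
Mcm6: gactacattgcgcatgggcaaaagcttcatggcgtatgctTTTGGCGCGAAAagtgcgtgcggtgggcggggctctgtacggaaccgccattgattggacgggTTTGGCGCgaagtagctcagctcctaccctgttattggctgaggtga

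Regulators of G1 gave a mixed picture, with 5 of 17 tested genes higher and 0 lower. Of the 17, 3 (Cdkn3, Rbl1 and Cdk2) were under 10 CPM in other fibroblasts and had to be higher to be tested. Among the other 14 genes, 2 were higher. Their median log2 fold was 0.35 in tube 1 and 0.71 in tube 2, and the list summed to 1177 against 830.0 CPM in tube 1 and 1071 against 816 in tube 2. Cdkn3, a phosphatase of Cdk1 and Cdk2 despite its inhibitor name, was at 102 against 1.83 and 75.5 against 1.42 CPM. Rbl1, the retinoblastoma relative p107, was at 30.2 against 3.85 and 22.0 against 2.84 CPM. Both are known to peak with dividing cells. Cdkn2d, the inhibitor p19 of Cdk4 and Cdk6, was at 112 against 14.1 and 75.5 against 14.9 CPM, and Cdk2, the kinase of S phase, at 21.8 against 6.28 and 23.3 against 5.40. Cdkn2c was the fifth higher gene. Ccnd1 and Ccnd2, D cyclins of early G1, were under the limit: Ccnd1 was at 60.0 against 36.5 and 63.2 against 34.4 CPM, and Ccnd2 at 93.8 against 156 and 60.4 against 117. Targets of p53 held 1 lower gene of 10, Trp53inp1, at 11.1 against 24.3 and 15.1 against 31.6 CPM. Cdkn1a, the p21 inhibitor that stops the cycle, was at 80.5 against 68.1 and 93.4 against 76.3 CPM.

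A list of chromatin and histone genes, picked as genes raised in cycling cells, was higher in 18 of 21 tested. Its median log2 folds were 1.96 and 1.70. The direction of the list followed from how it was made, so these values are a description. Of the 21 genes, 1 was under 10 CPM in other fibroblasts of at least 1 tube and had to be higher to be tested. Stmn1, the microtubule regulator stathmin, was at 909 against 26.2 CPM in tube 1 and 624.8 against 18.4 in tube 2, a 34.7-fold and 33.9-fold difference. H2afz, the histone variant H2A.Z, was the most abundant of the 4 named, at 1858 against 270.0 and 1417 against 213 CPM. H2afx, the variant that marks DNA breaks, was at 152 against 14.6 and 139 against 11.7 CPM, and Hmgb3, a chromatin protein, at 52.9 against 5.83 and 38.4 against 7.25.

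The cells were not uniform. In every cell the summed UMIs of the replication list were set against those of the mitosis list. The replication list led in 50 of 418 cycling cells of tube 1 (11.96%, 9.01 to 15.5) and in 8 of 66 of tube 2 (12.1%, 5.38 to 22.5), and the mitosis list in 363 and 57. In fibroblasts with 0 rule genes the replication list led in 22.7% of cells of tube 1 and 21.5% of tube 2. A lead of that list alone therefore does not mark a cell in S phase. Pclaf, a PCNA partner at replication forks, was at 542 CPM (95% Poisson interval 462 to 632) in the cells led by replication genes against 350.2 (324 to 378) in those led by mitosis genes of tube 1, and at 388 (290 to 509) against 241 (203 to 284) in tube 2. Aspm, a spindle pole protein, had 2 UMIs in the first kind of either tube, which is 6.65 CPM against 120.4 in tube 1 and 14.9 against 89.99 in tube 2. Cdkn3 was at 16.6 against 116 CPM in tube 1, and in tube 2 at 0 UMIs in the 8 cells (upper limit 27.5 CPM) against 91.7. Cdkn2d was at 26.6 against 127 CPM, and in tube 2 at 0 against 93.4. Cdk2 went the other way in tube 1, at 46.6 (25.5 to 78.1) against 17.7 (12.3 to 24.8) CPM, and its intervals overlapped in tube 2, at 29.9 (8.13 to 76.4) against 22.1 (11.8 to 37.7). The 2 kinds were made from these same cells, so their values are a description. Matrix genes were lower in the cells led by replication genes: Col1a1 was at 13292.5 (12884 to 13711) against 14009 (13843 to 14178) CPM in tube 1 and at 12828 (12229 to 13449) against 14174 (13871 to 14481) in tube 2. Lum was at 2079 against 2759 and 1216 against 1701 CPM, and Dcn at 9570 against 10482 and 6761 against 8761. The intervals of Lum and Dcn did not overlap in either tube, but they leave out the spread between cells. Cells led by replication genes were also deeper, with medians of 6071 against 4912 UMIs in tube 1 and 14572.5 against 9427 in tube 2. The part of depth in these values was not tested.

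Outside the lists, the higher genes with the largest folds in both tubes included Depdc1a, Esco2, Spag5, Iqgap3, Ska1, Mxd3, Kif15, Pclaf and Aspm. Most of them are known parts of the mitotic apparatus or of cohesion. Mitotic genes chose the cells, so this is a description. The genes named here were all under 10 CPM in other fibroblasts of both tubes and had to be higher to be tested. Depdc1a was at 68.9 against 0.430 CPM in tube 1 and 37.1 against 0.276 in tube 2. Esco2, the acetyltransferase that sets cohesion during S phase, was at 84.9 against 0.523 and 56.3 against 0.434 CPM, and Ska1 and Spag5 act at kinetochores and the spindle. Pclaf was the most abundant of those named, at 378 against 5.89 and 268 against 3.55 CPM, and Aspm was at 104 against 0.635 and 75.5 against 1.18.

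Growth metabolism showed little beyond the limit. Of 20 genes of ribosome biogenesis and MYC targets, 1 was higher, Pa2g4, at 123 against 55.5 CPM in tube 1 and 136 against 66.7 in tube 2, and the median log2 fold of the list was 0.49 and 0.44. Nop56, a core protein of nucleolar particles, was at 72.9 against 34.8 and 96.1 against 52.5 CPM. None of 12 glycolysis genes and none of 15 oxidative phosphorylation genes passed the limit, with medians of 0.42 and 0.43, and of 0.28 and 0.33. Against other fibroblasts weighted to the same UMI totals, the glycolysis median was 0.06 and 0.09. Depth thus moved with this value, and its part was not tested. Eno1 reached 2-fold in tube 2 alone, at 88.0 against 55.2 and 117 against 56.5 CPM.

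**Figure D3:**
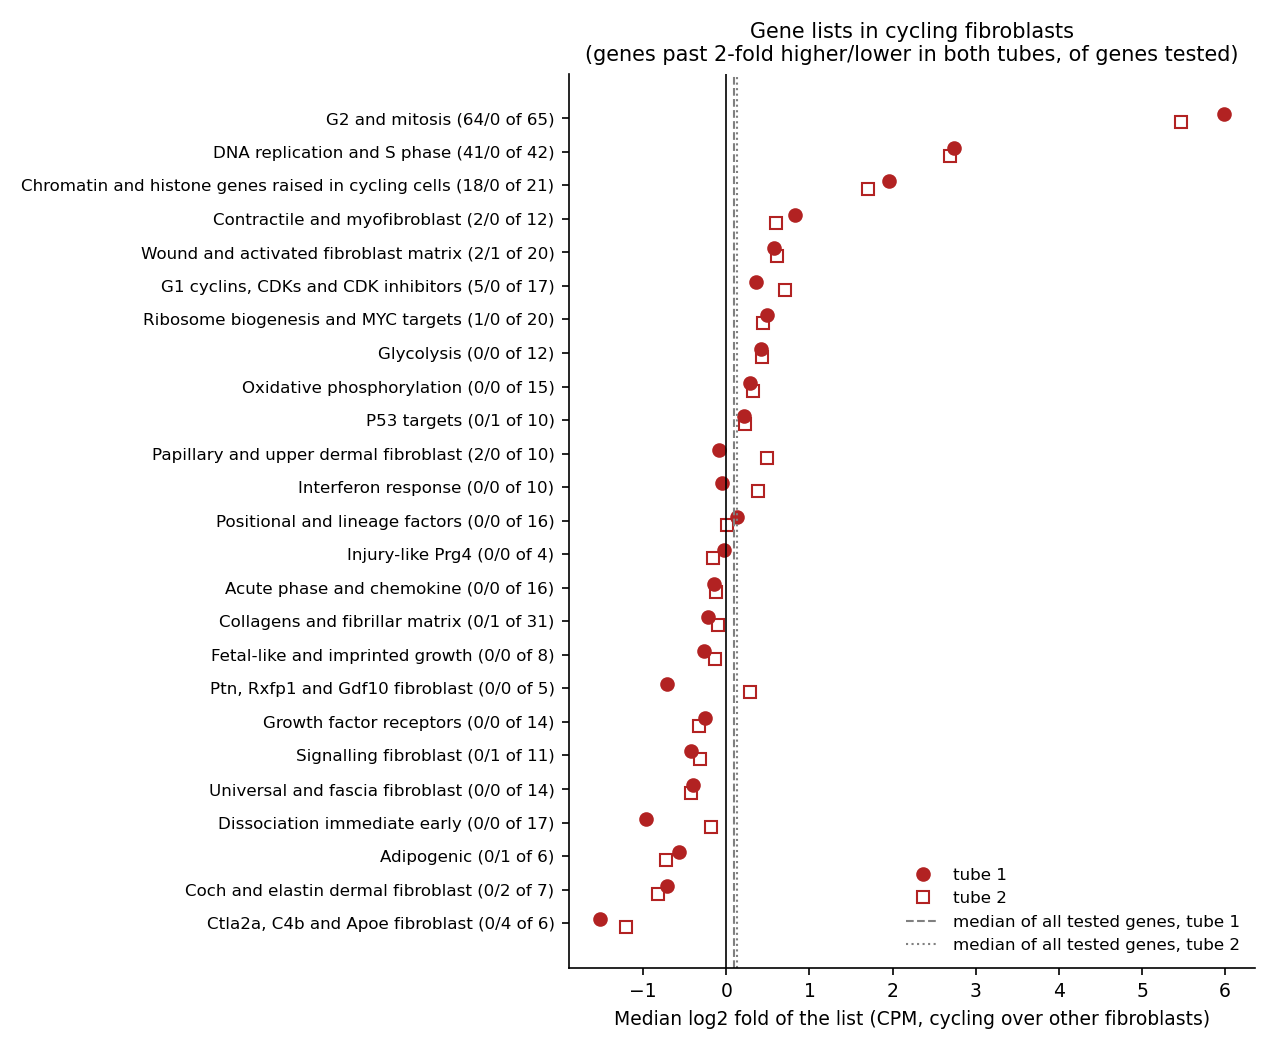
Median log2 fold (CPM, cycling over other fibroblasts) of the tested genes of each list in tube 1 (filled circles) and tube 2 (open squares), with the higher and lower counts of genes in brackets and the medians of all tested genes (0.10 and 0.13) as grey lines. The G2 and mitosis list (5.98 and 5.46) and the replication list (2.73 and 2.69) lie far to the right; on UMIs per cell all lists shift up by about the all-gene median, and most of the negative medians become positive.

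The collagen gene Col1a1 and the proteoglycan gene Dcn took a smaller share of the UMIs of cycling cells, while the matrix list summed to more UMIs per cell. Col1a1 was at 13974 against 21537 CPM in tube 1 and 13894 against 23678 in tube 2, which is 0.649 and 0.587 times the level in other fibroblasts. Dcn was at 10399 against 15929 and 8416 against 15537 CPM. Per cell the order turned round: Col1a1 averaged 75.2 against 64.9 UMIs per cell in tube 1 and 153 against 129 in tube 2. Of 31 collagen and fibrillar matrix genes, 1 was past the limit, Eln, the elastin gene, which was lower at 894 against 1830.1 and 846 against 1857 CPM. The list summed to 541 UMIs per cell in cycling against 412 in other fibroblasts of tube 1, and 887 against 618 in tube 2.

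Genes of wound and activated fibroblast matrix held 2 higher and 1 lower gene of 20. Tnn, the tenascin of developing and healing matrix, was at 52.0 against 12.1 CPM in tube 1 and 71.4 against 11.2 in tube 2. Col7a1, the collagen of anchoring fibrils, was at 80.0 against 36.4 and 109.8 against 33.6 CPM. Igfbp3, a binding protein for insulin-like growth factors, was lower at 33.3 against 69.8 and 20.6 against 110.05 CPM. The list's median log2 fold was 0.58 and 0.61, and against other fibroblasts weighted to the same UMI totals it was −0.15 and −0.06, so its sign depended on that choice. Of 12 contractile genes 2 were higher, Tpm2, a tropomyosin, at 249 against 94.2 and 244 against 105 CPM, and Actn1, an alpha-actinin, at 80.0 against 37.2 and 97.5 against 38.6. Acta2, the smooth muscle actin of myofibroblasts and pericytes, was at 246 against 79.3 CPM in tube 1 but at 149.7 against 141 in tube 2. It had a UMI in 106 of 418 and 26 of 66 cycling cells, of which 3 and 1 also had Rgs5, a pericyte marker, and 7 and 2 Notch3, a receptor of mural cells. Notch3 was found in 1.91% of cycling against 0.428% of other fibroblasts in tube 1 and in 6.06% against 0.944% in tube 2. The 3 cells with Rgs5 held 84 of the 554 Acta2 UMIs of tube 1.

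Because detection follows depth, shares of cells with a UMI were compared after thinning cells with at least 2000 UMIs to 2000, which left 403 of 418 cycling and 12840 other fibroblasts in tube 1 and 65 of 66 and 4172 in tube 2. Ptprc-positive cells of the same depth, 60 in tube 1 and 35 in tube 2, are given as the level that free RNA and mixed droplets can reach. Stmn1 was found in 77.7% of cycling against 4.06% of other fibroblasts in tube 1 and in 66.2% against 3.26% in tube 2, with 13.3% and 5.71% in Ptprc-positive cells. Without thinning the Stmn1 shares were 94.5% against 5.50% and 95.5% against 7.89%. Pcna, the sliding clamp of DNA replication, was found in 19.9% against 3.18% and 12.3% against 3.02%, with 6.67% and 5.71% in Ptprc-positive cells. Hmgb2 was found in 61.5% against 5.32% and 60.0% against 9.30%, with 15 of 60 and 7 of 35 Ptprc-positive cells. These 3 cycle genes stood above the Ptprc-positive level in both tubes, but for Pcna in tube 2 this rests on few cells, 8 of 65 against 2 of 35.

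Of the matrix genes, Postn, the wound matrix protein periostin, had a UMI in 71.0% of thinned cycling cells against 56.1% of others in tube 1 and in 75.4% against 57.7% in tube 2, with 63.3% and 62.9% in Ptprc-positive cells. Without thinning these Postn shares were 80.9% against 55.8% and 92.4% against 74.9%. The level of Postn was at 1592 against 1523 CPM in tube 1 and 1576 against 994 in tube 2. Acta2 was found in 17.6% against 5.88% of thinned cells in tube 1 and in 13 of 65 against 9.71% in tube 2, with 5.00% and 11.4% in Ptprc-positive cells, and without thinning in 25.4% against 7.28% and 39.4% against 17.5%. Ccnd2 was found in fewer cycling cells, at 13.4% against 24.3% and 10.8% against 18.6%, with 26.7% and 40.0% in Ptprc-positive cells. Apoe was likewise found in fewer, at 39.5% against 57.0% and 24.6% against 57.3%, with 45.0% and 51.4% in Ptprc-positive cells. Leukocytes are known to express Ccnd2 and Apoe, so their shares give no level of free RNA for these genes, and how much of the cycling shares is free RNA was not tested. Without thinning the Apoe shares were 57.7% against 64.7% and 71.2% against 75.2%. Without thinning the Ccnd2 shares were 30.6% against 30.6% and 40.9% against 36.1%. Prrx1 itself was found in 68.7% against 66.7% and 69.2% against 61.9%, with 61.7% and 37.1% in Ptprc-positive cells, and without thinning in 90.4% against 73.2% and 93.9% against 82.2%.

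**Figure D4:**
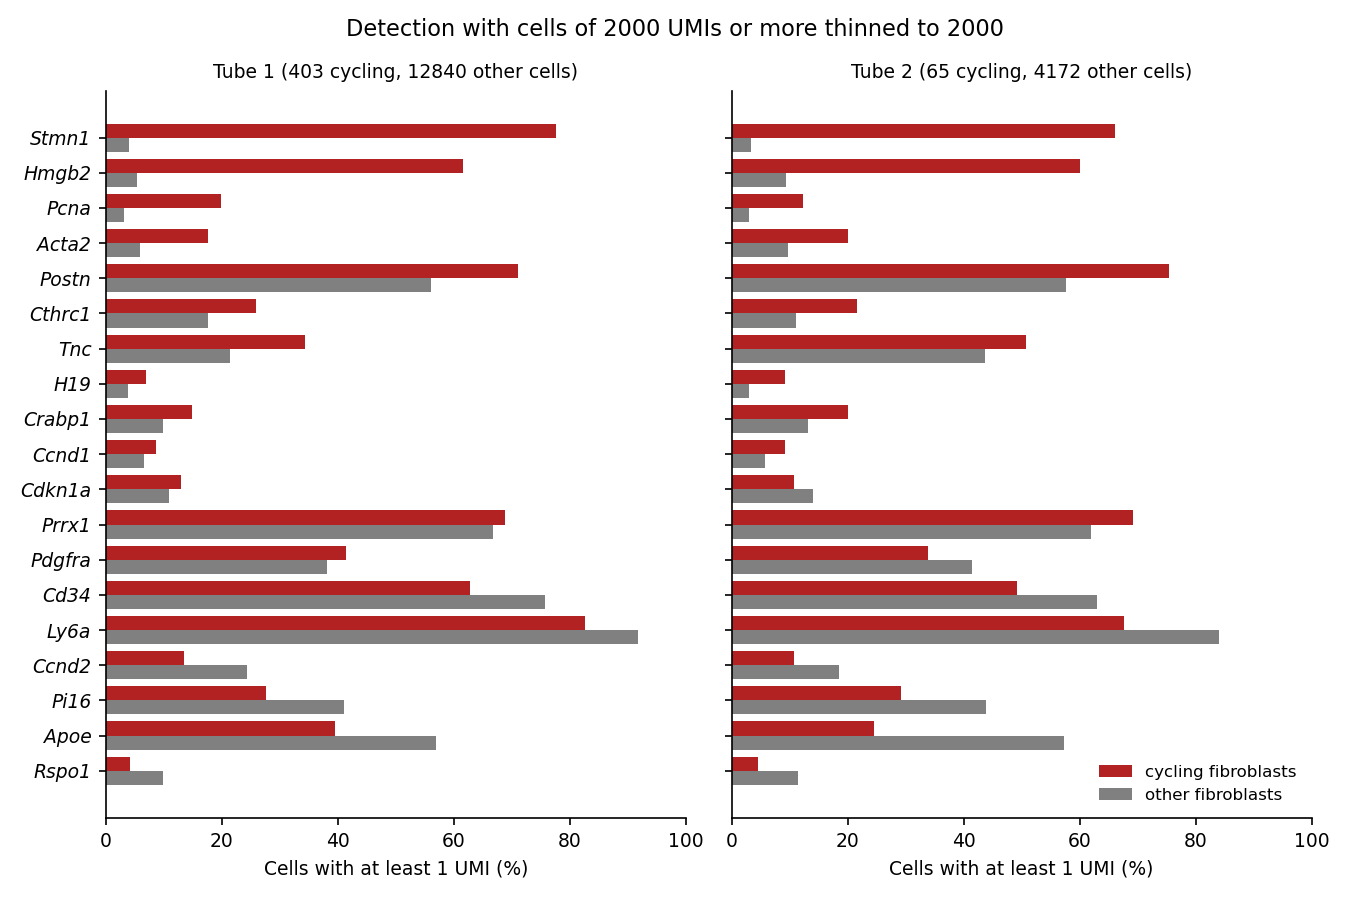
Share of cells with at least 1 UMI after cells with at least 2000 UMIs were thinned to 2000, in cycling fibroblasts (red) above other fibroblasts (grey), tube 1 left and tube 2 right. Stmn1 is at 77.7% against 4.06% and 66.2% against 3.26%, whereas Apoe is at 39.5% against 57.0% and 24.6% against 57.3%, where Ptprc-positive cells (not drawn) had 45.0% and 51.4%.

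Subtype genes of dermal fibroblasts were mostly under the limit, apart from a list with several lower genes. The list around Ctla2a, C4b and Apoe held 4 lower genes of 6 and 0 higher, with median log2 folds of −1.51 and −1.20. C4b, a complement component, was at 170.2 against 473 CPM in tube 1 and 141 against 397 in tube 2. Apoe, a lipid carrier, was at 392.5 against 1152 and 357 against 819 CPM, with the part of free RNA not tested. Ctla2a, a cathepsin inhibitor, was at 729 against 2184 and 1984 against 4580 CPM, and Gas6, the ligand of the TAM receptors, at 98.7 against 309.6 and 139 against 359.8. Against other fibroblasts weighted to the same UMI totals the list's median was −0.98 and −0.93, and on UMIs per cell it was −0.68 and −0.18.

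Other subtype lists held few genes past the limit. Ogn, the proteoglycan osteoglycin of the list around Coch and elastin, was lower at 129 against 319 and 124 against 301 CPM, and with Eln made 2 of 7 in that list. Rspo1, a Wnt agonist, was the only lower gene of 11 signalling fibroblast genes, at 17.8 against 56.3 and 27.5 against 61.2 CPM. Apod, a lipid-binding secreted protein, was the only lower gene of 6 adipogenic genes, at 222 against 540.0 and 173 against 569 CPM. On UMIs per cell the log2 folds in tubes 1 and 2 were −0.47 and −0.27 for Ogn, −0.83 and −0.14 for Rspo1, and −0.45 and −0.70 for Apod, all under 2-fold. Of 10 papillary genes, 2 were higher: Crabp2, a retinoic acid binding protein, at 18.2 against 6.15 and 19.2 against 7.06 CPM, and Wif1, a Wnt inhibitor, at 36.9 against 11.96 and 48.1 against 21.2. Crabp2 depended on the choice of cells, with log2 folds of 0.12 and 0.07 against other fibroblasts weighted by UMIs and of −2.41 in tube 2 among cells with a clear hashtag. Wif1 was under 2-fold in tube 2 among clear hashtags, with a log2 fold of 0.38. Crabp2 was also under 10 CPM in other fibroblasts of both tubes and had to be higher to be tested. None of 14 universal and fascia genes passed, and Pi16, the marker of universal fibroblasts, was at 269.8 against 560.1 and 408 against 592 CPM. None passed among 5 genes of the list around Ptn, Rxfp1 and Gdf10, 8 fetal-like and imprinted genes, 16 acute phase and chemokine genes, 4 genes of the list around Prg4, 17 immediate early genes of dissociation, 10 interferon genes, 14 growth factor receptors and 16 positional and lineage factors.

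Outside the lists, the lower genes with the largest folds were Cfd, Tcp11l2, Galnt15, Serpina3m, Serpina3c, Pla2g2e, Slco2b1, Spock2, Ppp1r14a and Mill2. Cfd, the adipocyte-linked complement factor D, had 3 UMIs in cycling cells of tube 1 and 6 in those of tube 2, which is 1.33 against 28.8 CPM and 8.24 against 178. Galnt15, a glycosyltransferase, was at 9.33 against 40.5 and 30.2 against 143 CPM. Cfd, Galnt15 and Tcp11l2 were the 3 genes that were at least 2-fold lower on UMIs per cell as well. Slco2b1, an organic anion transporter, was at 16.4 against 47.7 and 15.1 against 71.9 CPM. Several named genes lost the 2-fold limit in at least 1 tube against other fibroblasts weighted to the same UMI totals. Their log2 folds in tubes 1 and 2 were then 0.92 and 0.99 for Tpm2, 0.50 and 0.87 for Actn1, −0.51 and −1.17 for Igfbp3, and −0.61 and −0.70 for Eln. They were −0.996 and −0.656 for Rspo1, −0.91 and −1.44 for Apod, −0.92 and −0.86 for Apoe, and −0.64 and −1.36 for Slco2b1. Crabp2, Pa2g4, Trp53inp1, Pla2g2e, Ppp1r14a, Serpina3c and Spock2 also lost the limit in this way.

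Markers of other cell types were low and did not move together. Leukocyte markers summed to 13.8 against 32.4 CPM in tube 1 and 34.3 against 24.2 in tube 2, mast cell markers to 20.003 against 36.1 and 12.4 against 36.1, and keratinocyte markers to 47.6 against 65.5 and 83.8 against 62.9. Endothelial markers summed to 22.2 against 28.5 and 60.4 against 25.4 CPM, melanocyte markers to 37.8 against 80.4 and 48.1 against 95.5, and adipocyte markers to 29.8 against 55.1 and 37.1 against 176. Their part in any result was not tested. Of keratinocyte genes, Krt5 was found in 1 of 418 cycling cells of tube 1 (0.239%) against 0.130% of other fibroblasts and in 1 of 66 of tube 2 (1.52%) against 0.515%, and Krt14 in 2 (0.478%) against 0.270% and in 1 against 2.06%, while Epcam was at 0 against 0.0789% and 0.172%. Of melanocyte genes, Pmel was found in 3 (0.718%) against 0.214% and in 0 against 0.493%, and Dct in 0 against 0.0732% and 0.365%. Pericyte and smooth muscle markers summed to 377 against 199.98 and 292 against 289 CPM. Of 6 tested, Cspg4 (22.2 against 4.75 and 27.5 against 6.70) and Rgs5 (37.8 against 14.2 and 60.4 against 14.2) were past the limit. Cspg4 was under 10 CPM in other fibroblasts and had to be higher to be tested. Abcc9 and Kcnj8 went the other way without passing in both tubes, with log2 folds of −1.20 and −0.88, and of −0.75 and −1.50. The median log2 fold of the 6 genes was 0.78 in tube 1 and −0.40 in tube 2. Rgs5 was found in 5 of 418 and 3 of 66 cycling cells. Schwann cell markers summed to 210.3 against 87.3 and 206 against 96.2 CPM, most of it from Ncam1, an adhesion molecule that is not particular to Schwann cells, at 188 against 68.2 and 191 against 65.7 CPM. Sox10, the defining factor of the Schwann lineage, had a UMI in 2 of 418 and 0 of 66 cycling cells. Erythroid markers were at 2.22 against 0.243 and 0 against 0.355 CPM, and skeletal muscle markers at 17.8 against 15.6 and 9.61 against 23.5.

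The bulk libraries give the same cycle genes by age and lineage, in measurements that the rule did not use. The 24 libraries held 4264647 to 17187950 read counts in genes, and 15557 genes were tested with edgeR's quasi-likelihood test, with p-values adjusted by Benjamini-Hochberg over all of them. Replicates varied widely, with a common biological coefficient of variation of 1.029, and hemoglobin and related erythroid genes took 43.0% of the counts of library A of PNF at E18.5 and 44.6% of library A of PNF at P30. In bulk RNA, fewer cycling cells and less cycle RNA per cell cannot be told apart. The labels and headers do not state how reads shared by several transcripts were counted, so levels are not compared between genes.

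In PPF, 30 of 109 tested cycle genes were lower and 0 higher at P30 than at the 3 earlier ages, taken with equal weight. The rule genes that passed were Mki67, Top2a and Ube2c, all lower, which is 3 of 7 against a background of 1.27% lower (197 genes) and 3.92% higher (610 genes) among all tested. Without any 1 of the 6 earlier PPF libraries edgeR called between 237 and 360 genes in all, in place of 807, and without PNF P30 A or PNF P30 B it called 1225 or 1260. Mki67 lay at 0.113, 7.88 and 12.9 CPM (lowest, median and highest of 6 libraries) at P30, against 111 and 80.5 at E16.5, 173 and 76.5 at E18.5, and 38.9 and 82.5 at P1. All 6 P30 libraries lay below all 6 earlier ones. The log2 fold of Mki67 was −3.58 (SE 0.752, adjusted p = 0.00832). Top2a lay at 0, 7.10 and 23.3 CPM at P30, against 103 and 110.2 at E16.5, 168 and 168 at E18.5, and 39.4 and 73.2 at P1, again without overlap. Its log2 fold was −3.61 (SE 0.940, adjusted p = 0.0280). Ube2c lay at 0.113, 6.13 and 50.6 CPM at P30, against 308 and 217 at E16.5, 163 and 121 at E18.5, and 55.7 and 45.2 at P1, and here library A of P30 overlapped P1. Its log2 fold was −3.33 (SE 0.971, adjusted p = 0.0488). With each of the 24 libraries left out in turn, Mki67 passed in 24 of 24 fits (adjusted p 0.00217 to 0.0364), Top2a in 15 (0.00989 to 0.0915) and Ube2c in 3 (0.00671 to 0.130). Top2a was lost without any 1 of the 6 earlier PPF libraries or of PPF P30 D, E and F, and Ube2c passed without PNF P30 A, PNF P30 B or PPF P30 A. A lone library left in a group is assumed to vary like the other groups. Cdk1, Birc5, Cenpf and Prc1 had log2 folds of −4.16, −2.58, −1.76 and −0.79 and did not pass, with adjusted p of 0.0826, 0.263, 0.452 and 0.783 in edgeR.

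**Figure D5:**
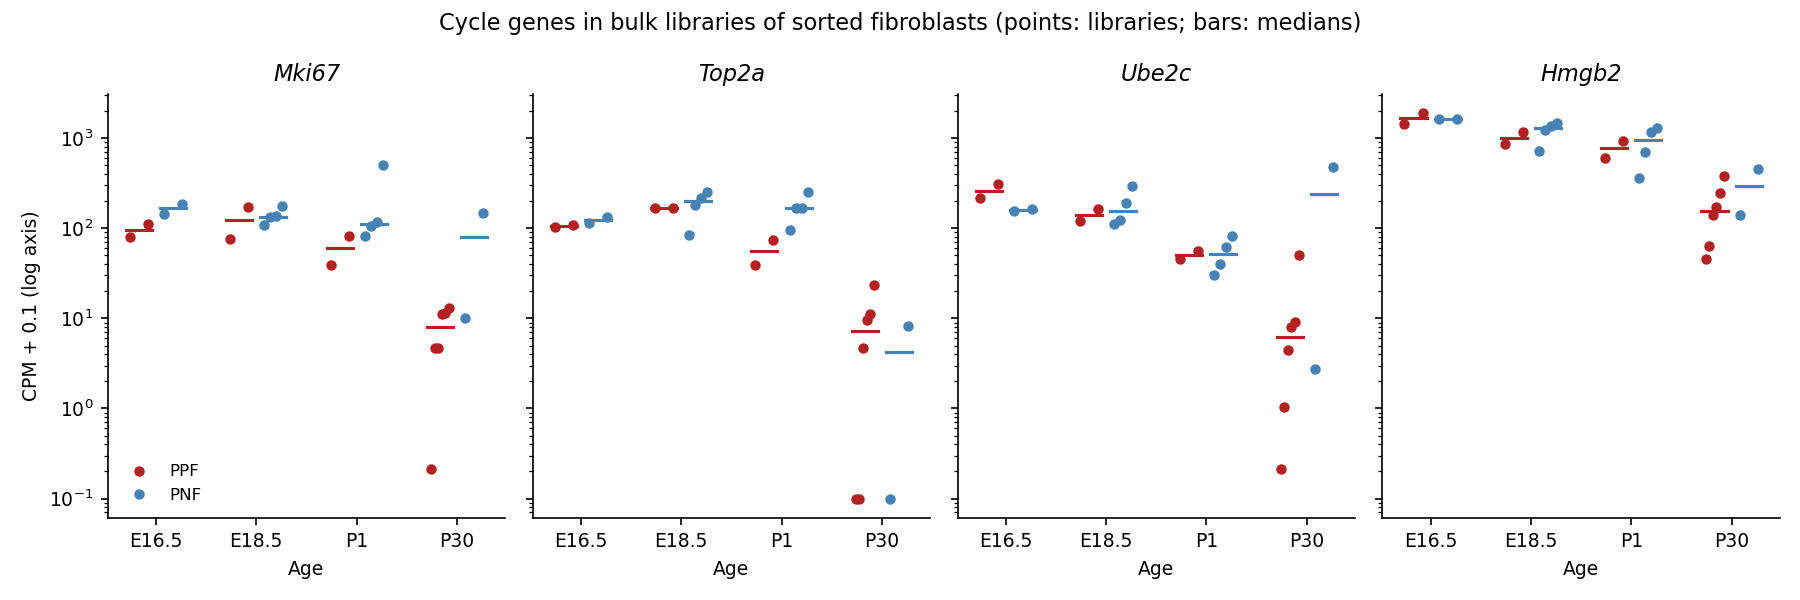
CPM (plus 0.1, log axis) of Mki67, Top2a, Ube2c and Hmgb2 in bulk libraries of sorted PPF (red, left) and PNF (blue, right) at E16.5, E18.5, P1 and P30; points are libraries and bars medians. In PPF the P30 medians are 7.88 (Mki67), 7.10 (Top2a) and 6.13 (Ube2c), and in PNF at P30 the 2 libraries lie far apart, at 149 and 9.92 for Mki67.

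The replication and mitosis lists held lower and no higher genes in PPF. Of 44 tested replication genes, 6 were lower at P30 and 0 higher, with a median log2 fold of −1.58, and of 58 genes of G2 and mitosis, 21 were lower and 0 higher, with a median of −2.91, where the median of all tested genes was 0.20. With genes at 0 counts in a whole group held at 3 counts, these medians were −1.53, −2.93 and 0.07. DESeq2 called 13 and 34 lower. Of all 109 cycle genes, 103 had a negative and 6 a positive log2 fold, among them Lin54 at 2.55 (adjusted p = 0.294) and Cdc25b at 2.35 (adjusted p = 0.213) in edgeR. The summed level of the mitosis list overlapped between ages. It lay at 5949, 7242 and 11593 CPM (lowest, median and highest of 6) at P30, against 15282 and 18352 at E16.5, 10336 and 10420 at E18.5, and 7026 and 9747 at P1, so that P30 overlapped both E18.5 and P1. The tubulin genes Tuba1b and Tuba1c, which also build the microtubules of resting cells, made up most of the P30 sum, with means of 3508 ± 1439 and 3349 ± 1398 CPM (SD, n = 6) and log2 folds of −0.16 and 0.23 that did not pass in edgeR (adjusted p = 0.829 and 0.690). The replication list summed to 505, 710 and 1167 CPM at P30, against 2759 and 2977 at E16.5, 2783 and 3394 at E18.5, and 1006 and 1423 at P1, where P30 overlapped P1. Hmgb2 lay at 45.2, 156 and 381 CPM (lowest, median and highest of 6) at P30, against 1918 and 1436.5 at E16.5, 1178 and 856 at E18.5, and 603 and 940.1 at P1, without overlap. Its log2 fold was −2.65 (SE 0.468, adjusted p = 0.00289). Ndc80, which anchors microtubules at kinetochores, lay at 0, 0.0536 and 2.04 CPM at P30, against 31.3 and 72.2 at E16.5, 50.9 and 46.9 at E18.5, and 3.38 and 38.6 at P1. The groups did not overlap, and the log2 fold was −6.22 (SE 1.19, adjusted p = 0.00451). Kif11, the kinesin that pushes spindle poles apart, lay at 0, 1.38 and 17.5 CPM at P30, against 45.1 and 83.9 at E16.5, 134 and 129.6 at E18.5, and 24.2 and 79.1 at P1. These too did not overlap, and the log2 fold was −4.11 (SE 0.834, adjusted p = 0.00667). Spc25, a partner of Ndc80, lay at 0, 0 and 0.639 CPM at P30, against 7.45 and 7.98 at E16.5, 8.09 and 18.2 at E18.5, and 1.01 and 1.12 at P1, also without overlap. Its log2 fold was −4.96 (SE 1.01, adjusted p = 0.00669). Of the replication genes, Rrm1, the large subunit of ribonucleotide reductase, lay at 50.7, 73.5 and 187 CPM at P30, against 258 and 346 at E16.5, 298 and 711 at E18.5, and 73.9 and 152 at P1. Its P30 and P1 libraries overlapped, and the log2 fold was −1.52 (SE 0.338, adjusted p = 0.0116). Rrm2, its small subunit, lay at 9.58, 16.1 and 83.9 CPM at P30, against 96.5 and 161 at E16.5, 117 and 321 at E18.5, and 63.6 and 127 at P1, where 1 P30 library lay above the lower P1 library. Its log2 fold was −2.32 (SE 0.551, adjusted p = 0.0172). Dnmt1, which copies DNA methylation at replication, had a log2 fold of −2.12 (adjusted p = 0.0239), and Asf1b of −3.71 (adjusted p = 0.0259). Over the replication, mitosis and rule lists 30 of 109 tested genes were lower. That number was 9 when library B of PPF was left out at E16.5 or at P1, 12 when library A was left out at either age, 13 and 15 when library B or library A was left out at E18.5, and it was 43 of 114 without the 2 libraries rich in erythroid counts, a choice made after seeing the data.

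The genes found in single cells could be followed in the same fit, in which edgeR called 1.27% of all tested genes lower and 3.92% higher. Of the 428 higher genes, 368 were tested in bulk, and 53 (14.4%) were lower and 1 higher in PPF at P30, with a median log2 fold of −1.15. Of those outside the cycle lists, 270 were tested and 24 (8.89%) were lower and 1 higher, with a median of −0.88. Of the 69 lower genes, 63 were tested and 37 (58.7%) were higher and 0 lower, with a median of 3.70. A total of 24 of these 63 genes were at 0 counts in a whole group, and with such genes held at 3 counts the median was 3.25, where that of all genes was 0.07. By DESeq2, 106 of the higher genes were lower at P30, and 48 of the lower genes were higher, against 3.47% lower and 11.5% higher among all genes with an adjusted p. The lists taken from single cells were chosen with earlier results known, and their counts are a description beside those of all genes.

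In PNF no cycle gene passed at P30. Over all genes, edgeR called 4 higher (0.0257%) and 0 lower (0%). Of the cycle genes 9 replication genes, 25 genes of G2 and mitosis and 3 rule genes had an unadjusted p under 0.05, and DESeq2 called 15 of the cycle genes lower. Of all genes, 6.99% had an unadjusted p under 0.05, and DESeq2 called 0.578% higher and 0.510% lower. The 2 P30 libraries differed from each other. Mki67 was at 149 and 9.92 CPM at P30, against 146 and 188 at E16.5, 109 to 175 at E18.5 and 82.6 to 508 at P1. Ube2c was at 479 and 2.67 CPM at P30, so that 1 library lay above and 1 below the 10 earlier ones, which ran from 30.1 to 295. Top2a was at 0 and 8.19 CPM at P30, below the 83.5 to 250 of all 10 earlier libraries, with a log2 fold of −5.17 (adjusted p = 0.380). The library with 149 CPM of Mki67 and 479 of Ube2c was the one with 44.6% erythroid counts. The median log2 fold was −1.89 for replication and −2.24 for G2 and mitosis, beside −0.39 for all tested genes. Without PNF P30 B, with library A alone at P30, edgeR called 2273 genes: 1980 were lower (11.2% of 17619) and 293 higher (1.66%), and of 114 cycle genes 19 were lower and 1 higher, and without PNF P30 A it called 35 genes and 0 cycle genes. Without any 1 of the other libraries it called 12 genes at most. The difference between the P30 change in PPF and that in PNF was tested itself, and edgeR called 0 of 15557 genes, with 14 of 109 cycle genes at an unadjusted p under 0.05. For Mki67 that difference was −2.50 in log2 (adjusted p = 0.635) and for Ube2c −4.39 (adjusted p = 0.616), so a difference between the lineages was not detectable here.

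Averaged over the 4 ages, PPF and PNF did not differ in a cycle gene that passed. EdgeR called 13 genes higher (0.0836%) and 92 lower (0.591%) in PPF, none of them a cycle gene, with 1 replication gene, 3 of G2 and mitosis and 1 rule gene at an unadjusted p under 0.05, and DESeq2 called 1 cycle gene lower. Of all genes, 13.9% had an unadjusted p under 0.05, and DESeq2 called 0.877% higher and 5.16% lower. The median log2 fold was −0.09 for replication and −0.10 for G2 and mitosis, against −0.14 for all genes. Mki67 was the rule gene with the smallest p, at a log2 fold of −1.52 (SE 0.542, adjusted p = 0.177). Sgo1, the protector of centromeric cohesion, had a log2 fold of −2.83 (adjusted p = 0.141). Leaving out PNF P30 B, edgeR called 1479 genes, with 4 cycle genes higher and 2 lower in PPF, and leaving out PPF P1 A or PPF P1 B it called 2 genes and no cycle gene. Without any other library the number lay between 3 and 220.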

How the data were processed

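The members, the gene lists and the tests were chosen with earlier results of these data known. The deposited single-cell tables hold UMI counts per gene and barcode for 2 tubes (31053 genes and 10 hashtags), written by 10x software 3.1.0 per the file headers. The deposited bulk tables hold read counts per transcript for 24 libraries, made by the authors, with mm10 and Seurat 3.2 and 3.1.1 named in the submitters' processing notes. The deposited bulk tables are named for featureCounts; no label or header names its version, its annotation or an aligner. Bulk libraries were made from low-input cDNA and skin was digested with collagenase, per the labels' protocols.

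UMIs were summed per tube and class, and levels are CPM. A gene was tested at a mean of at least 10 CPM over both classes in each tube and called past 2-fold in both tubes, with no p-value since each tube is 1 sample. Cycling cells held 2249690 and 728287 UMIs in tubes 1 and 2. Poisson and exact binomial (Clopper-Pearson) intervals are at 95%. Ptprc-positive cells are given beside detection shares as a level that free RNA can reach, where leukocytes lack the gene.

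Bulk transcript counts were summed to genes with GENCODE vM21 (82916 of 95883 transcripts matched) and fitted over 8 groups with edgeR 4.0.16 (quasi-likelihood, TMM, R 4.3.3). DESeq2 1.42.0 was an alternative, called at an adjusted p of 0.05 as edgeR was. Libraries held 4264647 to 17187950 counts in genes. The steps were tested on simulated data. Single cells were handled with Python 3.11.15, numpy 2.4.6, pandas 2.3.3, scipy 1.17.1 and scanpy 1.11.5.

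The text names the 7 rule genes, up to 4 genes a list with the largest fold in 1 direction that both tubes shared, up to 10 a direction outside the lists (leaving out Gm, Rik, mt-, Rpl, Rps and sex-linked names), and in bulk up to 4 genes of the replication and mitosis lists by smallest p. Other genes, among them Acta2, Postn, Pttg1, Gins4, Eno1, Ccnd1, Ccnd2 and Pi16, were named after their values were seen. A gene that the rule picks is not reported here. Alternatives changed the number of rule genes, the filters, the scale, the depth, the bulk tool, scaling, filter and block, and left out each library in turn. Hashtags were not tied to samples, and lineage or wounding was not analysed here within the tubes.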

Additional observations from a re-analysis of the deposited data

Results flagged for a closer look

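Within each group of 4 to 10 bulk libraries, the levels of the rule genes and cycle list sums were searched for a library far from the others. Of 30 groups of values, 8 held one. The limits used hold for normally distributed values, and a group with only 1 library above 0 is always flagged. The rule gene sum also contains Mki67, so the 8 are not independent. Their number therefore cannot be set against a rate given by chance. In PNF at P1, library A had 508 CPM of Mki67 (the others 82.6 to 117), 4.12 CPM of Cenpf (the others 0.312 to 0.869) and a rule gene sum of 856 CPM (the others 252 to 327). Library A of PPF at P30 had 50.6 CPM of Ube2c (the others 0.113 to 9.12), 3.19 CPM of Birc5 and 0.767 CPM of Cenpf, with the other 5 at 0 for both. Library F of PPF at P30 had 0.330 CPM of Cdk1, which was 3 counts, with the other 5 at 0. Library A of PNF at E18.5 had a replication list sum of 1871 CPM (the others 3297 to 3583), and 43.0% of its counts were erythroid. Whether that share moved the sum was not tested.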

How the results depend on the processing

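The share of cycling cells in tube 1 was 2.94% with at least 2 rule genes, 1.82% with at least 4, 3.23% with 1000 genes or more, 1.97% at a mitochondrial limit of 5%, 1.98% with cells of 2000 UMIs or more thinned and 2.75% among clear hashtags (chosen after seeing the data). In tube 2 it was 2.35% with at least 2 rule genes, 0.729% thinned and 2.04% among clear hashtags. Scrublet gave no calls, so its alternative has no value. Higher genes numbered 112 at 50 CPM, 986 with no filter, 896 at 1.5-fold and 2988 on UMIs per cell (added after seeing the data), and 10 of 14 alternatives kept the count within 1.5 times. Lower genes numbered 194 at the 5% mitochondrial limit, 23 with other cells weighted by UMIs, 31 at 50 CPM, 178 with no filter, 328 at 1.5-fold and 3 on UMIs per cell. In bulk, 807 genes were called for P30 in PPF, 2200 by DESeq2 and 1446 without the 2 erythroid-rich libraries (added after seeing the data), with a range of 237 to 1260 as each library was left out. For PNF at P30, 4 genes were called, 128 by DESeq2, 10 with RLE scaling, 38 with no filter and 46 without the erythroid-rich libraries, with a range of 0 to 2273. For PPF against PNF, 105 were called, 833 by DESeq2, 428 with no filter and 320 without the erythroid-rich libraries, with a range of 2 to 1479. With the library letter as a replicate block, 126, 0 and 28 genes were called in these 3 comparisons in that order, and 3 cycle genes were lower in PPF at P30. The letters are only names: over 62 same-letter pairs the correlation of deviations ran from −0.21 to 0.1845, and 13 were over 0.1. The cause of these moves was not tested. The values of tube 2 rest on 66 cycling cells, and a level of 0 UMIs there bounds counting error only.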
